A study of Mus musculus with 4 samples.

Results

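Klf2, Klf4 and 7 further genes of the endothelium that responds to blood flow (S1pr1, Rasip1, Nos3, Thbd, Nts, Dusp2 and Cd34) were followed through the cells of the embryonic mouse heart. These were 9 of the 32285 genes counted in the files, taken by symbol. Klf4, S1pr1 and Rasip1 are among them because their levels were higher in mesenchymal-like cells of the mutant hearts, so that difference chose them and is given below as values without a test. Their counts were summed in 6508 endothelial cells, defined by at least 2 molecules of Cdh5 and Pecam1 together, and in 5332 cells of Hapln1 mesenchyme, of 29168 cells in all. The question was whether the 3 genes found higher in mutant mesenchyme belong there to cells that also carry endothelial transcripts.

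Hearts at E10.5 were dissociated and profiled as droplet single-cell RNA libraries, in which each captured mRNA molecule carries a unique molecular identifier (UMI). There were 2 libraries of wild-type hearts (Wt1 and Wt2) and 2 of hearts homozygous for the I383V substitution of Cyp51, a demethylase of the cholesterol synthesis pathway (Ho1 and Ho2). All were C57BL/6J, the labels list CRISPR/Cas9 as the treatment of both genotypes, and the mutation was in the germline and so in every cell. After filtering, Wt1 had 97179971 UMIs in 8908 cells, Wt2 105282895 in 7154, Ho1 113478594 in 6980 and Ho2 98379564 in 6126. Nothing in the sources used here says that the libraries came from separate embryos or litters, so the p-values measure the spread between libraries. Levels are given as CPM, the UMIs of a gene per 1000000 UMIs of the same cells, and where 4 values stand in a row they are those of Wt1, Wt2, Ho1 and Ho2. Cyp51 itself was at 46.5, 43.4, 41.0 and 40.4 CPM in endothelial cells, and a count of 3′ ends does not read the substituted base, so these values do not check the genotype. The libraries shared between 9 and 28 cell barcodes per pair.

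Ho1 stood apart from the other libraries. It held 28877 UMIs of Xist, which is transcribed from the inactive X chromosome, against 5 in Wt1, 4 in Wt2 and 2 in Ho2. The 12 sarcomere genes of a list of heart muscle transcripts summed to 3371 CPM in its endothelial cells, against 885 in Wt1, 1001 in Wt2 and 857 in Ho2, and its 9 erythroid genes to 611 CPM against 90.5, 80.6 and 114. Each comparison of the genotypes below is therefore given with and without this library where that changed a call.

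Endothelial cells sense the friction of flowing blood through junctional and membrane complexes. The signal passes through a mitogen-activated kinase cascade to MEF2 factors, which switch on the zinc finger factors Klf2 and Klf4. These in turn raise genes such as Nos3 and Thbd that keep vessels dilated and free of clots. In the embryonic heart the same factors act in the endocardium, most of all where the flow is fast, over the cushions that form the valves and in the outflow tract. The cushions are also where endocardial cells turn into mesenchyme, which builds a matrix that Hapln1 helps to crosslink.

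Klf2 is a gene of the plus strand on chromosome 8 (72319033 to 72321656, GRCm38) and Klf4 of the minus strand on chromosome 4 (55527143 to 55532466). Their promoters are shown because both factors had the same direction in every split of the endothelial cells below and because the MEF2 route to Klf2 runs through its promoter. Sequences are those of RefSeq on GRCm38.p6, 5′ to 3′ on the strand of the gene, up to the last base before the start of the gene (RefSeq for Klf4, and for Klf2 the start given above, which lies upstream of that of RefSeq), and 6 of the 9 genes were in the table used. Capitals mark matches on either strand to a MEF2-type motif (CTA, 4 bases of any kind, TAG) or to CCNCNCCC, a CACCC-type motif bound by Klf factors, and matches that overlap run together.
Klf2, chr8:72318812-72319032, plus strand: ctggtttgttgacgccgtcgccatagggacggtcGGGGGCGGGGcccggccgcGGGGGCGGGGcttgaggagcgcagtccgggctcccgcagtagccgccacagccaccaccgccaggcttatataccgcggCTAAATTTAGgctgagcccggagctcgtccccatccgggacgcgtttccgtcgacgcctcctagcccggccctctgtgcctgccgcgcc
Klf4, chr4:55532476-55532725, minus strand: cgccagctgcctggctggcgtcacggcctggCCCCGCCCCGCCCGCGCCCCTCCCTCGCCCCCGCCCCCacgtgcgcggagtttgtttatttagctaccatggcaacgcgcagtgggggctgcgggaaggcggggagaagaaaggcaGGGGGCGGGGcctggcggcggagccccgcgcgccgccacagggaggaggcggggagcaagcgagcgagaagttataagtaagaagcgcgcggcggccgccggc
The MEF2-type match of Klf2 began 118 bases before the RefSeq start, and Klf2 was the only 1 of the 6 promoters that held such a match, against 3.20% of 32851 mouse promoters. The CACCC-type motif was in 5 of the 6, all but Cd34, and in 45.9% of all promoters. A match describes the letters of the window and was not set against binding data.

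The remaining genes encode a receptor and its junctional partners, enzymes and surface proteins. S1pr1 (chromosome 3, 115710433 to 115715072) encodes a receptor for sphingosine 1-phosphate that stabilises endothelial junctions. Rasip1 (chromosome 7, 45627488 to 45639093) encodes an effector of the small GTPase Rap1 that is needed for vessel lumens. Nos3 (chromosome 5, 24364810 to 24384474) is the endothelial nitric oxide synthase and Thbd (chromosome 2, 148404466 to 148408188) is thrombomodulin, a cofactor that turns thrombin towards anticoagulation. Nts (chromosome 10, 102481756 to 102490486) encodes the peptide neurotensin, Dusp2 (chromosome 2, 127336159 to 127338376) a nuclear phosphatase of mitogen-activated kinases, and Cd34 (chromosome 1, 194938819 to 194961279) a sialomucin of endothelial and blood progenitor cells. All 9 are protein coding.

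The 6508 endothelial cells came to 1311, 1902, 2109 and 1186 cells, or 14.7%, 26.6%, 30.2% and 19.4% of the library. Their label held against 15 further endothelial markers, none of which was at 0 and which summed to 3785, 4060, 3341 and 4011 CPM. In cardiomyocyte-like clusters of the same libraries these markers summed to 75.9, 71.0, 67.3 and 65.7 CPM. Mesenchymal-like clusters lay between, at 1244, 1268, 1296 and 1429 CPM for the same markers. Ramp2 was the most abundant of the markers in the endothelial cells. Not all gated cells clustered as endothelium: 5060 lay in endothelial-like clusters and 1207 in mesenchymal-like clusters, and 2689 also met the definition of Hapln1 mesenchyme. For this reason the main values are also given for endothelial-like clusters, which were built without the 9 genes.

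In whole cell classes the genes were endothelial to different degrees, which describes the choice of the genes and was not tested. Klf2 fell in order from 254 ± 37.4 CPM (SD, n = 4 libraries) in endothelial-like clusters through 142 ± 47.0 in mesenchymal-like clusters and 32.4 ± 7.71 in epicardial-like clusters to 15.7 ± 2.08 in cardiomyocyte-like clusters, and the ranges of these neighbours over the libraries did not overlap. The macrophage-like cluster of Ho1, the only library with at least 50 cells of it, was at 78.5 CPM. Klf4 had no such order at the top, with 22.7 ± 5.36 CPM in mesenchymal-like, 18.4 ± 4.25 in endothelial-like, 13.6 ± 2.00 in cardiomyocyte-like and 10.6 ± 3.60 in epicardial-like clusters, where neighbouring classes overlapped. Rasip1 was the most restricted of the 4, at 80.3 ± 4.33 CPM in endothelial-like clusters, 19.997 ± 4.598 in mesenchymal-like clusters and 1.21 ± 0.293 in cardiomyocyte-like clusters. S1pr1 was highest in endothelial-like clusters at 47.7 ± 6.87 CPM, and its cardiomyocyte-like level of 21.3 ± 3.14 lay above its mesenchymal-like level of 9.86 ± 3.30.

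The other genes also differed in where they were found. Nos3 (38.9 ± 3.95 CPM) and Nts (83.4 ± 7.60) led in endothelial-like clusters with mesenchymal-like clusters next at 9.26 ± 0.850 and 46.3 ± 11.7. Cd34 was at 119 ± 16.7 CPM in endothelial-like and 58.8 ± 7.95 in mesenchymal-like clusters. Thbd had its highest mean in cardiomyocyte-like clusters (8.75 ± 2.95 CPM), which overlapped with endothelial-like ones (6.11 ± 0.938) over the libraries. Dusp2 reached 62.3 CPM in the macrophage-like cluster of Ho1, beside 34.2 ± 7.60 in endothelial-like clusters.

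Among the 5 endothelial-like clusters, 1 of 1422 cells led by Nts, Wnt4, Cd34 and Klf2 held the highest mean levels of both factors. Klf2 was at 501 ± 64.8 CPM (SD, n = 4 libraries) and Klf4 at 46.4 ± 8.44 there. In the pair of clusters led by Npr3, Emcn and Gja4, with 1770 and 1578 cells, Klf2 was at 169 ± 31.8 and 206 ± 21.3 CPM and Klf4 at 10.7 ± 2.98 and 11.4 ± 4.18. In a cluster of 529 cells led by Cldn5 and Aplnr, Klf4 was at 10.2 ± 4.79 CPM. The fifth, of 810 cells with 0.102 times the median UMIs of their libraries, had Klf2 between 99.7 and 139 CPM and Klf4 between 4.53 and 10.7 CPM, from 2 to 4 Klf4 UMIs a library. In the first 4 clusters Rasip1 had means between 71.9 and 84.3 CPM, and S1pr1 ranged from 33.2 to 56.8. Nts was at 358 ± 58.5 CPM in the first cluster and at 7.20 ± 2.39 and 6.65 ± 2.51 in the Npr3 clusters.

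Over 26 sums of a cell class and library with at least 50 cells, the genes whose log2(CPM + 1) followed Klf2 most closely among 10755 genes were Cd38 (Pearson r = 0.958), Msn (0.953) and Clic1 (0.945). For Klf4 they were Gask1b (0.901), Sptbn1 (0.899) and Rcan1 (0.892). For S1pr1 they were Camta1 (0.963), Cd59a (0.939) and Upp1 (0.924), and for Rasip1 Sox18 (0.979), Cdh5 (0.975) and Ccm2l (0.967). Cdh5 defined the endothelial cells of the sums used elsewhere, and sums of 1 library share its depth.

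The first comparison asked whether endothelial cells of mutant hearts differ in these genes from those of wild-type hearts. Klf4 was counted at 16.2 CPM in Wt1 and 18.5 in Wt2 and at 24.9 in Ho1 and 26.7 in Ho2, from 302, 592, 914 and 564 UMIs. Both mutant libraries lay above both wild-type libraries, with means of 17.3 ± 1.64 and 25.8 ± 1.31 (SD, n = 2 each). Dusp2 was counted at 23.4 and 26.6 CPM in Wt1 and Wt2 and at 31.7 and 36.3 in Ho1 and Ho2, again without overlap. S1pr1 was at 40.6 and 36.4 CPM in the wild-type and 49.3 and 47.2 in the mutant libraries, which did not overlap either. Nts was at 76.8 and 82.7 CPM in the wild-type libraries and 82.9 and 103 in the mutant ones, so that Ho1 lay just above Wt2.

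Klf2 overlapped between the genotypes in CPM. It was counted at 222 CPM in Wt1 and 257 in Wt2 and at 245 in Ho1 and 334 in Ho2, with Ho2 the highest by far and Ho1 between the wild-type values. In TMM-scaled CPM it was at 222, 250, 253 and 333, and in endothelial-like clusters at 217, 243, 250 and 306 CPM, where Ho1 lay just above Wt2 in both. Rasip1 was at 70.7 and 72.6 CPM in Wt1 and Wt2 and at 68.7 and 79.3 in Ho1 and Ho2, with the mutant libraries on both sides of the wild-type ones. The same held for Nos3, at 36.4, 35.7, 38.3 and 31.4 CPM, and for Cd34, at 121, 112, 93.3 and 132 CPM in the same order. Thbd was at 7.07, 5.34, 6.78 and 7.02 CPM, where both mutant values lay between the wild-type ones.

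No gene passed the test between genotypes in endothelial cells (0% of 13895 tested, edgeR quasi-likelihood test with Benjamini-Hochberg adjustment), so none of the 9 was called. At an unadjusted p under 0.05 there were 779 genes, and DESeq2 called 28. Klf4 had the 14th smallest p, with a log2 fold change of 0.61 (SE 0.10, unadjusted p = 4.4e-04, adjusted p = 0.418 by edgeR). Dusp2 followed with 0.48 (SE 0.10, adjusted p = 0.587) and S1pr1 with 0.37 (SE 0.10, adjusted p = 0.813). Klf2 was at 0.31 (SE 0.13, adjusted p = 0.836) and Nts at 0.26 (SE 0.10, adjusted p = 0.836). The log2 fold changes of Thbd (0.21, SE 0.17), Rasip1 (0.08, SE 0.08), Nos3 (-0.0028, SE 0.12) and Cd34 (-0.01, SE 0.14) were smaller than or close to their standard errors. After TMM scaling, which corrects for differences in make-up between libraries, 6 of the 9 genes (Klf2, Klf4, S1pr1, Nts, Dusp2 and, by a narrow margin, Rasip1) were higher in both mutant libraries and none lower in both, beside 18.5% of all genes tested that were higher in both and 17.9% that were lower in both on that scale. Nothing is read from this count, because Klf4, S1pr1 and Rasip1 were chosen for being higher in mutant mesenchymal-like clusters and 1207 of the endothelial cells lie in those clusters, so that part of the same values enters it and the tests of these 3 genes.

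**Figure D1:**
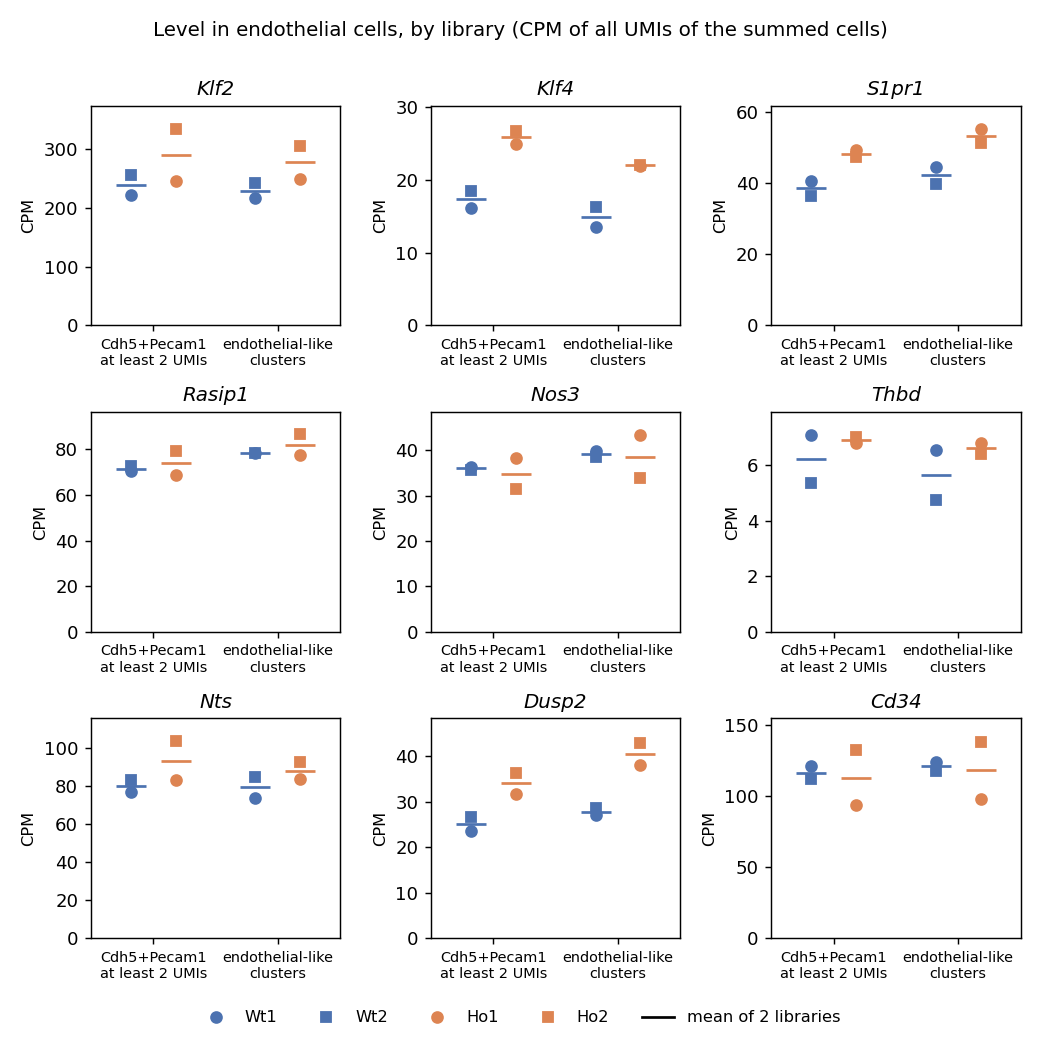
Levels of the 9 genes in CPM (vertical axes, from 0) for cells with at least 2 UMIs of Cdh5 and Pecam1 and for endothelial-like clusters, 1 point per library and a line for the mean of 2 libraries. Klf4, S1pr1 and Dusp2 show both Ho libraries above both Wt libraries in either set of cells, and Rasip1, Nos3 and Cd34 show the Ho libraries around the Wt values.

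These calls depended on which libraries and which low-count genes entered. With all 4 libraries and no filter on low counts, edgeR called 376 genes, with Klf4 (0.62, adjusted p = 2.5e-05), Dusp2 (0.49, adjusted p = 9.4e-04), S1pr1 (0.38, adjusted p = 0.0176) and Klf2 (0.32, adjusted p = 0.026) among them, while by DESeq2 Klf4 had an adjusted p of 0.0616. Without Ho1, 232 genes were called and Klf4 (0.63, adjusted p = 0.00118), Dusp2 (0.55, adjusted p = 0.00191), Klf2 (0.50, adjusted p = 3.1e-04) and Nts (0.39, adjusted p = 0.00695) were among them in edgeR, while S1pr1 (0.32, adjusted p = 0.112) was not. Without Ho2, 730 genes were called, with Klf4 (0.58, adjusted p = 3.0e-04), S1pr1 (0.42, adjusted p = 0.00309) and Dusp2 (0.40, adjusted p = 0.0124) among them and Klf2 at 0.10 (adjusted p = 0.696). In these fits the lone mutant library is assumed to vary like the wild-type pair. Without Wt1 or without Wt2, edgeR called no gene, with 379 and 300 genes at an unadjusted p under 0.05. Over all 17 alternatives the adjusted p of Klf4 ran from 2.5e-05 to 1.00 and its log2 fold change from 0.51 to 0.75.

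The 3 leading genes kept their direction in other definitions of the endothelial cells. In endothelial-like clusters, which still held 1867 cells of the Hapln1 mesenchyme, Klf4 was at 13.5, 16.2, 21.9 and 22.0 CPM, with a log2 fold change of 0.60 (adjusted p = 0.368). With the Hapln1 mesenchyme left out of the endothelial cells it was 0.75 (adjusted p = 0.746), and for S1pr1 0.39 and Dusp2 0.55. With only cells under 1% sarcomere UMIs, Klf4 was at 0.60 (adjusted p = 0.187 by edgeR).

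Markers of other cells were higher in Ho1 than in the other libraries of the endothelial sums, and their part in these differences was not tested. All 12 sarcomere genes had a positive log2 fold change (median 1.49), with Myl7 the most abundant at 249, 253, 1127 and 240 CPM. All 7 tested erythroid genes (median 4.45, most abundant Hbb-y at 82.5, 72.1, 236 and 102 CPM) and all 4 tested macrophage genes (median 0.95, most abundant Fcer1g) were positive too, and the 10 macrophage genes summed to 17.6 CPM in Ho1 and to 5.89, 5.00 and 4.98 in Wt1, Wt2 and Ho2. Of the macrophage genes 2 were at 0 in Wt1 and 4 in Ho2, and of the erythroid genes 1 in Wt1 and 2 in Wt2. The 15 endothelial markers had a median of -0.07, with 5 positive. Of 16 genes induced by dissociation, 10 were positive (median 0.17), and their sums were 1732, 1699, 1740 and 1709 CPM. Among them the stress factor Atf3 was at 151, 154, 216 and 197 CPM, a log2 fold change of 0.48 (SE 0.08, adjusted p = 0.457 by edgeR), beside 0.55 for the mRNA decay factor Zfp36.

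The wider flow pathway had 0 called genes in the same fit. Of 19 genes that sense flow or relay it to MEF2, such as Piezo1 (0.04) and Plxnd1 (0.06), 9 had a positive log2 fold change, with a median of -0.0005 against 0.0048 over all genes tested. The 2 furthest from 0 were the channels Trpv4 (0.75, SE 0.36) and Piezo2 (-0.51, SE 0.36). Of 21 tested genes that respond to flow or to Klf factors, 17 were positive, with a median of 0.13, beside 7120 positive of all 13895 genes. That list does not separate genes that flow raises from genes that it lowers, so the count gives no direction of a response. Edn1, which encodes the vasoconstrictor endothelin 1, was at 97.5 and 89.3 CPM in Wt1 and Wt2 and at 115 and 126 in Ho1 and Ho2, a log2 fold change of 0.41 (SE 0.08, adjusted p = 0.587 by edgeR) without overlap. Of 14 tested Klf relatives, 8 were positive (median 0.04), and Klf8 (0.61, SE 0.36) and Klf14 (-0.59, SE 0.36) lay furthest from 0. Of 15 partners of S1pr1 and Rasip1, 9 were positive (median 0.03), with S1pr3 at -0.50 (SE 0.45) and Radil at 0.27 (SE 0.29).

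The second comparison asked how the 9 genes are distributed between endothelial cells with and without Npr3, which encodes a clearance receptor for natriuretic peptides and marks endocardium. At least 1 UMI of Npr3 was found in 821, 1306, 1463 and 799 cells, and none in 490, 596, 646 and 387. Klf2 was at 205, 228, 227 and 275 CPM with Npr3 and at 256, 339, 298 and 485 without it. Klf4 was at 11.8, 13.0, 18.9 and 19.2 CPM with Npr3 and at 25.3, 34.2, 41.8 and 46.3 without. Every library had more of both factors in the cells without Npr3. Dusp2 went the other way in every library, at 27.2, 30.6, 36.8 and 41.1 CPM with Npr3 and 15.6, 15.1, 17.3 and 23.9 without.

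All 9 genes passed the test of this split with the library as a block, against 45.1% of 13003 genes (22.4% higher and 22.8% lower with Npr3, edgeR). The split was chosen with earlier results of these data known, so nothing is read from this count. The 5 that were lower with Npr3 were Nts (log2 fold change -1.56, SE 0.08, adjusted p = 2.9e-10), Klf4 (-1.17, SE 0.07, adjusted p = 8.7e-10), Thbd (-0.70, SE 0.12), Cd34 (-0.64, SE 0.04) and Klf2 (-0.47, SE 0.06, adjusted p = 5.2e-06). The 4 that were higher were Dusp2 (1.00, SE 0.07, adjusted p = 1.1e-08), Rasip1 (0.50, SE 0.04), Nos3 (0.48, SE 0.06) and S1pr1 (0.45, SE 0.06). The sets differ in depth and make-up. Median UMIs per cell were 14021, 17009.5, 17335 and 17601 with Npr3 and 12030.5, 13348, 14191.5 and 14202 without it, and of the 1207 gated cells of mesenchymal-like clusters 803 had no Npr3 UMI.

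Restricting the split to endothelial-like clusters was done after the values were seen. It gave larger differences for the genes lower with Npr3 and smaller ones for those higher with it. Klf4 (-1.52), Klf2 (-0.87), Nts (-2.41), Thbd (-1.26) and Cd34 (-1.19) were again lower with Npr3 and Dusp2 (0.50, adjusted p = 5.9e-04) higher, all called by edgeR. The differences of S1pr1 (-0.12, adjusted p = 0.173), Rasip1 (0.05, adjusted p = 0.498) and Nos3 (-0.08, adjusted p = 0.404) were not called there. With every cell thinned to 5000 UMIs, Klf2 (-0.73), Klf4 (-1.12), Nts (-1.62), Cd34 (-0.82) and Dusp2 (0.39) were called, and S1pr1 (0.20), Rasip1 (0.09), Nos3 (0.07) and Thbd (-0.71, adjusted p = 0.0506) were not.

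Genes around the 9 were called in both directions, beside 22.4% of all 13003 genes called higher with Npr3 and 22.8% called lower. Of 21 flow and Klf response genes, 8 were called higher with Npr3 and 7 lower. The arterial connexin Gja4 (1.23) and the Notch ligand Dll4 (1.18) were higher, and the ligand Wnt9b (-2.93), the water channel Aqp1 (-1.80), Edn1 (-0.76) and the inhibitory Smads Smad6 (-0.70) and Smad7 (-0.74) were lower. Of the 19 sensing and kinase genes 4 were higher and 7 lower, with Plxnd1 (0.74) and Piezo1 (0.26) among the former and Trpv4 (-2.92), Piezo2 (-0.97) and Heg1 (-0.17) among the latter. Of 14 Klf relatives 1 was higher and 9 lower, such as Klf6 (-0.47) and Klf3 (-0.47), and of 15 S1pr1 and Rasip1 partners 5 were higher and 5 lower, with the S1P exporter Spns2 at 0.85 and the Rasip1 partner Arhgap29 at 0.68. Of the other lists, 12 of 15 endothelial markers were called higher, all 12 sarcomere, 3 of 4 macrophage, 6 of 7 erythroid and 8 of 16 dissociation genes lower. A further 2 dissociation genes were called higher.

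The third comparison split the same endothelial cells by Wnt4, a ligand that was found in 546, 836, 1031 and 542 cells. Klf2 was at 290, 319, 319 and 422 CPM with Wnt4 and at 163, 197, 164 and 253 without, so that every library had more Klf2 with Wnt4. Klf4 was at 20.7, 21.2, 29.6 and 34.9 CPM with Wnt4 and at 12.3, 15.9, 19.7 and 19.2 without. Cd34 did not follow, at 118, 111, 97.7 and 127 CPM with Wnt4 and at 123, 112, 88.4 and 138 without.

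Of the 9 genes 8 were called higher with Wnt4, against 19.8% of 13138 genes called and 10.8% called higher (edgeR, library as a block). Wnt4 is a leading gene of the endothelial-like cluster with the highest mean Klf2 and Klf4. The split was also chosen with earlier results of these data known. It thus partly restates that cluster, and nothing is read from the count or from the ranks of p. Klf2 had the 8th smallest p of all, with a log2 fold change of 0.84 (SE 0.04, adjusted p = 5.0e-08). Nos3 (0.77, SE 0.05), Thbd (0.75, SE 0.13) and Klf4 (0.68, SE 0.08, adjusted p = 5.6e-05) followed in size, and Nts (0.53, SE 0.10), Dusp2 (0.53, SE 0.06), S1pr1 (0.50, SE 0.05) and Rasip1 (0.47, SE 0.03) came next. Cd34 was not called (0.03, SE 0.04, adjusted p = 0.728), though it was with at least 2 Wnt4 UMIs required (0.13, adjusted p = 0.0276). The cells with Wnt4 were deeper, with 14356.5, 17678, 17335 and 17329 median UMIs against 12407, 14146.5, 15025.5 and 15521. When thinned to 5000 UMIs, Klf2 (1.08), Klf4 (0.96), Nos3 (0.71), Thbd (0.85), Nts (0.67) and Dusp2 (0.47) were called, and S1pr1 (0.22, adjusted p = 0.305) and Rasip1 (0.19, adjusted p = 0.273) were not.

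In endothelial-like clusters alone the Wnt4 difference was 0.58 for Klf2 and 0.57 for Klf4, and 7 of the 8 genes were called there, all but Nts (0.12, adjusted p = 0.463 by edgeR), while Cd34 was called lower (-0.18, adjusted p = 0.00578). That count was not set against the share of all genes called in these clusters, and nothing is read from it. Nts also fell short in DESeq2 (0.56, adjusted p = 0.0556). The values that follow are again of all endothelial cells, not of endothelial-like clusters alone. Among the other genes of the pathway, Heg1, a junctional sensor protein, was called higher at 0.90. Also called higher were Wnt9b (3.96), Aqp1 (1.74), the chemokine Ccl2 (1.40), the S1P phosphatase Plpp3 (0.91) and the receptor S1pr4 (1.31). The arterial connexin Gja5 (-1.25) and Piezo2 (-0.86) were called lower. In all, 6 of 19 sensing genes, 6 of 21 response genes, 4 of 13 Klf relatives and 7 of 14 S1pr1 and Rasip1 partners were higher, and 2, 4, 1 and 1 were lower. Of all 13138 genes tested, 10.8% were called higher and 9% lower. The sarcomere list had 10 of 12 genes called lower, the endothelial markers 8 higher and 1 lower, and the dissociation list 8 of 16 higher. Of the macrophage genes 3 of 4 (median -2.44) and of the erythroid genes 5 of 7 (median -0.70) were called lower.

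**Figure D2:**
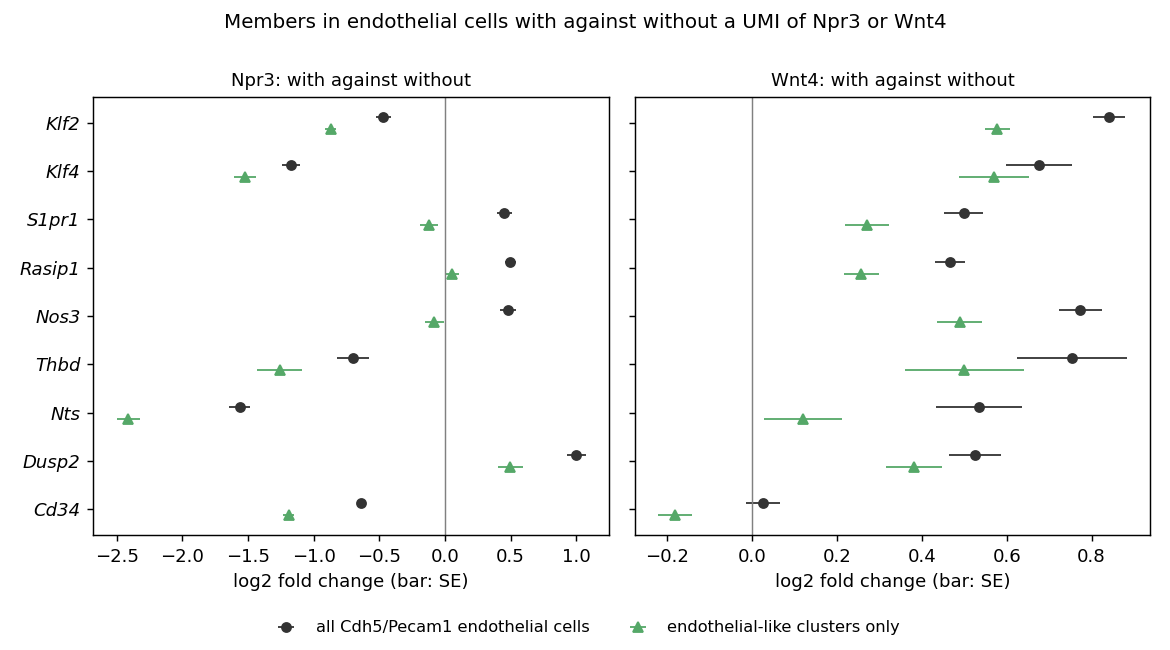
Log2 fold change (horizontal axis, bars are standard errors) of each gene between endothelial cells with and without Npr3 (left) and with and without Wnt4 (right), for all Cdh5 and Pecam1 endothelial cells and for endothelial-like clusters only. Klf2, Klf4, Thbd, Nts and Cd34 lie left of 0 in the Npr3 panel and Dusp2 right of it in both sets of cells, and S1pr1, Rasip1 and Nos3 lie near 0 in endothelial-like clusters.

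Taking both transcripts at once gave 4 sets of cells, in which Klf2 and Klf4 had a common peak. Without Npr3 and with Wnt4, Klf2 was at 417, 552, 504 and 825 CPM and Klf4 at 40.9, 49.6, 61.3 and 77.4 CPM. With Npr3 and without Wnt4 they were lowest or nearly so, with Klf2 at 158, 186, 168 and 230 CPM and Klf4 at 9.18, 11.04, 15.6 and 13.96 CPM. Nts had the same peak, at 206, 238, 234 and 273 CPM without Npr3 and with Wnt4, against 30.8, 43.2, 38.3 and 57.9 CPM in the cells with Npr3 alone. Dusp2 had another, at 30.9, 35.1, 41.7 and 43.6 CPM in the cells with both transcripts, against 15.7, 17.0, 23.5 and 28.0 CPM in the cells where Klf2 was highest. In each of these sets both mutant libraries had more Klf4 than both wild-type libraries. Klf4 was chosen for such a difference in mesenchymal-like clusters, which held 803 of the endothelial cells without Npr3 and 404 with it. Part of the same values thus enters these sets, and nothing is read from this order.

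**Figure D3:**
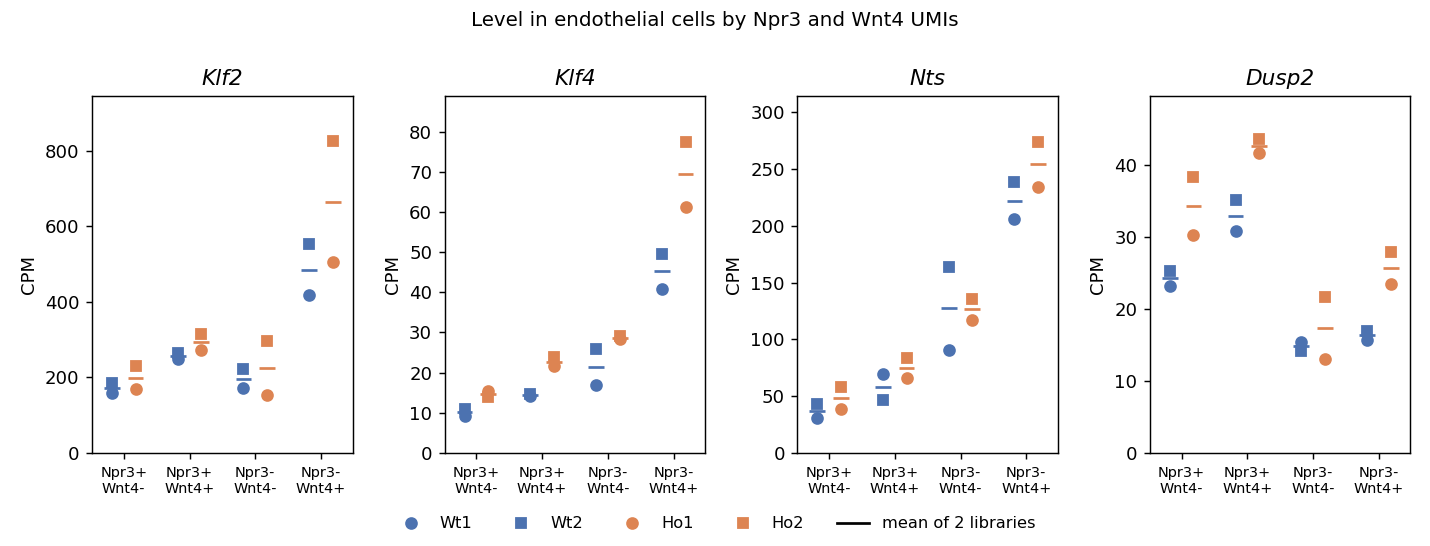
Levels of Klf2, Klf4, Nts and Dusp2 in CPM (vertical axes, from 0) in endothelial cells by the presence of an Npr3 or Wnt4 UMI, 1 point per library and a line for the mean of 2 libraries. Klf2, Klf4 and Nts peak without Npr3 and with Wnt4, where Klf4 runs from 40.9 to 77.4 CPM, and Dusp2 is highest with both transcripts.

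Whether the genotype difference was itself unlike in cells with and without Npr3 was tested as an interaction. No gene was called (0% of 13003, edgeR, with 209 at an unadjusted p under 0.05), and the adjusted p of all 9 genes was 1.00. The interaction was 0.05 on the log2 scale for Klf4 (SE 0.18), 0.17 for S1pr1 (SE 0.16) and -0.19 for Klf2 (SE 0.28). Both sets come from the same 4 libraries. With the library as a block 9 genes were called by edgeR, none of the 9 genes among them (adjusted p = 1.00 for each), and the interaction was 0.08 for Klf4 (SE 0.14), 0.17 for S1pr1 (SE 0.11) and -0.16 for Klf2 (SE 0.10).

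The last question was where Klf4, S1pr1 and Rasip1 lie within the mesenchyme. In mesenchymal-like clusters (845, 952, 1251 and 612 cells), Klf4 was at 17.0, 20.0002, 24.8 and 29.1 CPM, a mutant to wild-type ratio of 1.46. S1pr1 was at 7.67, 6.42, 12.3 and 13.1 CPM (ratio 1.80) and Rasip1 at 16.4, 16.1, 21.9 and 25.6 CPM (ratio 1.46). Both mutant libraries lay above both wild-type libraries for each, which is the difference that chose them. In that contrast 0.156% of 12809 genes were called, and 0.0219% of 13718 in the Hapln1 mesenchyme, and nothing is read from these shares for the 3 genes. In the same clusters the 15 endothelial markers summed to 1244, 1268, 1296 and 1429 CPM, led by Ramp2, with none at 0. The sarcomere genes summed to 894, 1048, 1205 and 868.3 CPM, led by Tnni1, and the erythroid genes to 46.5, 50.2, 60.7 and 78.4 CPM. The macrophage genes, 4 to 7 of 10 at 0, summed to between 0.974 and 1.56 CPM, and the dissociation genes to 1821, 1874, 1907 and 1877 CPM, and the part of these transcripts in the difference was not tested.

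Hapln1 mesenchyme was then defined by at least 2 UMIs of Hapln1, at least 2 of Postn, Twist1 and Cthrc1 together and under 1% of UMIs from the sarcomere list. Of its 1110, 1501, 1776 and 945 cells, 45.0%, 49.4%, 51.7% and 47.6% carried at least 1 UMI of Cdh5, which encodes the endothelial cadherin. These cells were largely endothelial by their whole profile: 1705 of the 2609 lay in endothelial-like and 889 in mesenchymal-like clusters, against 162 and 2222 of the 2723 without Cdh5. A further 282 of the cells without Cdh5 were epicardial-like, against 10 of those with it. Their part in the levels without Cdh5 was not tested. Of all mesenchymal UMIs 46.5%, 51.7%, 56.1% and 48.0% were in cells with Cdh5. The share of S1pr1 UMIs in them was 91.7%, 93.6%, 93.5% and 90.5%, and that of Rasip1 86.3%, 93.7%, 92.3% and 91.5%, close to the median of the 15 endothelial markers (86.6%, 89.1%, 91.3% and 87.9%). The share of Klf4 was 57.8%, 59.1%, 70.0% and 60.4%, above that of all UMIs and below that of the markers in every library.

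Between mesenchymal cells with and without Cdh5, all 9 genes were called higher with it, against 51.8% of 13047 genes called and 25.9% called higher (edgeR, library as a block). The 9 were taken as genes of the endothelium, and the cells with Cdh5 were largely endothelial. The direction therefore follows from the choice, and nothing is read from the calls. The sizes of the differences are given as a description. S1pr1 was at 37.5, 32.8, 46.3 and 42.0 CPM with Cdh5 and at 2.95, 2.39, 4.11 and 4.07 without, a 12.2-fold difference (log2 3.61, SE 0.09, adjusted p = 8.8e-13). Rasip1 was at 63.6, 68.4, 65.7 and 76.5 CPM with Cdh5 and at 8.74, 4.95, 6.98 and 6.56 without, a 10.6-fold difference (log2 3.40, SE 0.10, adjusted p = 4.1e-12). Klf4 differed least of the 9, at 20.9, 21.6, 29.9 and 32.8 CPM with Cdh5 and 13.3, 16.0, 16.4 and 19.8 without, which is 1.66-fold (log2 0.73, SE 0.08, adjusted p = 4.6e-06). Klf2 differed 6.41-fold (log2 2.68, SE 0.08). The other 5 had log2 fold changes between 1.66 (Cd34) and 3.49 (Nos3), with Thbd at 2.45, Nts at 2.57 and Dusp2 at 3.17.

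The same split within mesenchymal-like clusters, added after the values were seen, gave 1.12 for Klf4, 2.76 for S1pr1, 3.06 for Rasip1 and 3.14 for Klf2 on the log2 scale, and with cells thinned to 5000 UMIs it gave 0.75, 2.31, 2.07 and 1.91, all called by edgeR. The values that follow are of the split of the whole Hapln1 mesenchyme, where 25.9% of 13047 genes were called higher and 25.8% lower. All 15 endothelial markers were called higher with Cdh5 (median log2 2.98). Of the sensing genes 11 of 19 were higher, led by Ccm2l (3.63) and Plxnd1 (3.09), and 3 were lower, led by Trpv4 (-1.93). Of the response genes 15 of 21 were higher, led by Gja4 (5.11) and Dll4 (5.10), and 4 were lower, led by the adhesion molecule Vcam1 (-1.48). The S1pr1 and Rasip1 partners had 8 of 16 higher, such as Spns2 (3.54), and 6 lower, such as the kinase Sphk1 (-2.83), and the Klf relatives 3 of 13 higher and 4 lower. Of the dissociation genes 11 of 16 were called higher with Cdh5 and 1 lower (median log2 0.42), of the erythroid genes 3 of 7 higher, and of the sarcomere genes 6 of 12 lower, and their part in this split was not tested.

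Without a Cdh5 UMI, the level of each gene can be set against its level in endothelial cells of the same library. Klf4 kept 82.1%, 86.7%, 66.0% and 74.0% of it. S1pr1 kept 7.26%, 6.58%, 8.34% and 8.62% and Rasip1 12.4%, 6.82%, 10.1% and 8.27%, beside a median of 11.9%, 11.9%, 11.4% and 9.92% for the endothelial markers. Of the 3 genes, Klf4 was thus closest to its endothelial level, and S1pr1 and Rasip1 were near or below the share that the markers kept.

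With each cell thinned to 5000 UMIs, Klf4 was found in 7.71%, 8.19%, 7.22% and 10.2% of Hapln1 mesenchyme without Cdh5, in 8.34%, 8.33%, 11.3% and 10.96% of endothelial cells and in 6.62%, 5.38%, 8.23% and 6.85% of cardiomyocyte-like cells. S1pr1 was found in 1.84%, 1.36%, 2.05% and 2.45% of the mesenchyme without Cdh5, below the 7.55% to 10.2% of cardiomyocyte-like cells of Wt1 and Wt2. Rasip1 was found in 4.52%, 3.14%, 3.49% and 3.27% of it, above the 0.373% and 0.444% of cardiomyocyte-like cells of Wt1 and Wt2 and below the 29.4% and 28.4% of their endothelial cells. Thinning left out 14, 26, 27 and 6 of these mesenchymal cells, in which the exact 95% intervals of single libraries for Klf4 spanned 5.55% to 13.3%, and the Klf4 shares without thinning were 15.1%, 19.9%, 19.8% and 25.7%. Free RNA in the droplets can give such low shares, and its part was not tested.

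The difference between the genotypes, which chose the 3 genes, was divided between cells with and without Cdh5 as a description, and these shares also follow how many of each gene's UMIs lie in cells with Cdh5. Within mesenchymal-like clusters the cells with Cdh5 held 91.3% of the difference in mean CPM for Klf4, 89.2% for S1pr1 and 94.9% for Rasip1, and within the Hapln1 mesenchyme 81.4%, 90.8% and 107%. Without Cdh5 in mesenchymal-like clusters, Klf4 was at 13.0, 16.1, 16.0 and 18.4 CPM (ratio 1.18) and Rasip1 at 5.98, 4.36, 6.76 and 5.84 (ratio 1.22), and the genotypes overlapped for both. S1pr1 was at 2.41, 2.82, 4.10 and 3.51 CPM there (ratio 1.46) without overlap, from 21, 31, 51 and 24 UMIs. In the Hapln1 mesenchyme without Cdh5, the ratio was 1.24 for Klf4, 1.53 for S1pr1 and 0.989 for Rasip1, with overlap of the libraries for Rasip1 alone. With Cdh5 it was 1.47, 1.25 and 1.08 in this mesenchyme and 1.57, 1.55 and 1.23 in mesenchymal-like clusters. The S1pr1 ratio without Cdh5 was thus the larger one in the Hapln1 mesenchyme and the smaller one in mesenchymal-like clusters, and with cells thinned to 5000 UMIs the log2 ratio without Cdh5 in the Hapln1 mesenchyme was 0.18.

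The part of the mesenchyme that carried Cdh5 also differed in mesenchymal-like clusters, while in the Hapln1 mesenchyme Ho2 (47.6%) lay below Wt2 (49.4%) and the genotypes overlapped. In mesenchymal-like clusters it was 26.4% and 26.5% of the cells of mesenchymal-like clusters in Wt1 and Wt2 and 32.1% and 34.5% in Ho1 and Ho2, with exact 95% intervals of 23.4% to 29.5%, 23.7% to 29.4%, 29.5% to 34.7% and 30.7% to 38.4% that cover counting error only. Thinned to 5000 UMIs per cell these shares were 15.6%, 14.02%, 18.6% and 20.7%. With the share of Cdh5 cells held at that of the wild type, the ratios were 1.35 for Klf4, 1.53 for S1pr1 and 1.23 for Rasip1. Among mesenchymal-like cells with Cdh5, Klf4 was at 28.3 and 31.0 CPM in Wt1 and Wt2 and at 42.5 and 50.6 in Ho1 and Ho2. S1pr1 was at 22.7, 16.5, 28.6 and 32.2 CPM and Rasip1 at 46.1, 49.0, 52.1 and 65.2 CPM in the same order, and the genotypes overlapped for none of the 3. These cells held most of the difference for which the 3 genes were chosen, so nothing is read from this order.

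**Figure D4:**
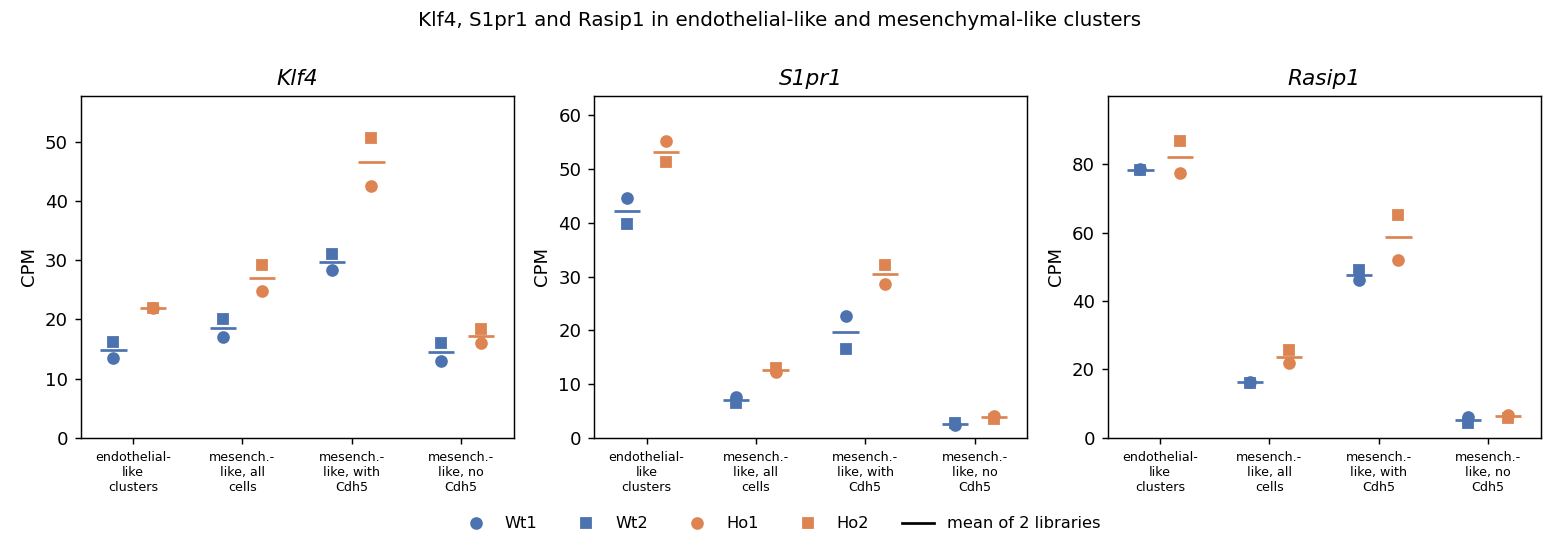
Levels of Klf4, S1pr1 and Rasip1 in CPM (vertical axes, from 0) in endothelial-like clusters and in mesenchymal-like clusters, the latter for all cells and for cells with and without a Cdh5 UMI, 1 point per library and a line for the mean of 2 libraries. S1pr1 and Rasip1 without Cdh5 stay at or below 4.10 and 6.76 CPM, and Klf4 without Cdh5 runs from 13.0 to 18.4 CPM, close to its endothelial-like levels.

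Endothelial transcripts were then removed more strictly. In mesenchymal-like cells with neither Cdh5 nor Pecam1, S1pr1 was at 1.56, 1.24, 3.31 and 2.67 CPM, a ratio of 2.14 on 9, 9, 26 and 11 UMIs, and Klf4 at 12.4, 14.1, 13.9 and 16.8 CPM, a ratio of 1.15 with overlap. Rasip1 had means of 3.09 and 3.92 CPM, a ratio of 1.27 with overlap. Dusp2 had a ratio of 2.36 there without overlap, from means of 1.11 and 2.61 CPM and single libraries between 0.692 and 2.67 CPM. At such levels the ratio of Dusp2 rests on few UMIs, and nothing is read from it. In mesenchymal-like cells with Cdh5 its ratio was 0.834, with the mutant libraries lower and no overlap. Over all cells of these clusters it was 1.11 with overlap. Among the mesenchymal-like clusters, the one led by Rtn1, Hapln1 and Twist1 (1499 cells) held the most of each gene, with Klf4 at 30.5 ± 7.56, S1pr1 at 15.5 ± 4.67, Rasip1 at 31.4 ± 5.57 and Klf2 at 249 ± 64.6 CPM (SD, n = 4 libraries). The one led by Stmn4 and Postn (760 cells) held Klf4 at 7.16 ± 1.31, S1pr1 at 1.11 ± 0.686, Rasip1 at 0.521 ± 0.551 and Klf2 at 4.06 ± 1.57 CPM.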

How the data were processed

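The authors aligned reads with Cell Ranger 6.1.1 to mm10 and deposited raw UMI counts per gene and cell. Counts were not normalized before deposit, and Seurat 4.1.0 is also named in the submitters' processing notes. Cells with 500 to 6000 genes, 500 to 50000 UMIs and no more than 20% of UMIs from mitochondrial genes were kept. The cells with the highest Scrublet scores (scanpy 1.11.5) were removed as doublets at a rate of 0.8% per 1000 cells, which took 5.17% to 7.73% of a library. Leiden clusters (2000 variable genes without the 9 genes, 30 components, resolution 0.8, no integration, Python 3.11.15) were named only where at least 3 markers of a class were raised 2 times. This gave 28 clusters, 6 unnamed. Not every cluster with that many markers was named. Those led by mt-Nd3, Gm26917 and Osr1 stayed unnamed with 4 cardiomyocyte, 4 mesenchymal and 3 epicardial markers raised. Ho1 had few pharyngeal, second heart field or epithelial cells.

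UMIs were summed per library. CPM are of all UMIs of the summed cells. edgeR 4.0.16 in R 4.3.3 (quasi-likelihood, TMM, filterByExpr, Benjamini-Hochberg at 0.05) was the test, tested on simulated data, and DESeq2 1.42.0 an alternative. Depth was 97179971 to 113478594 UMIs used. The 9 genes, the 9 gene lists and the splits were chosen with earlier results of these data known. The genes to name were the 9, in each list those called and the 2 with the largest change, the 5 largest changes called in endothelium and the 3 genes most like each of 4. Of the genes called in a list only examples are printed, and Piezo1 and Plxnd1 in endothelium and the genes named from the Cdh5 split were chosen after their values were seen. Alternatives were other normalization, filters, cell definitions, thinning, replicate block and leaving out each library. Positions are of GENCODE M21 (GRCm38) and promoters of RefSeq.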

Additional observations from a re-analysis of the deposited data

How the results depend on the processing

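In the endothelial comparison of the genotypes, no gene was called, and leaving out 1 library gave 0 to 730 called genes, DESeq2 28, no filter on low counts 376, cells under 1% sarcomere UMIs 2 and endothelial-like clusters 1. Of 153 member values under alternatives, 127 kept direction and side of the threshold, and 11 passed it. Nos3 turned positive without the filter (0.0037), at 1 UMI of Cdh5 and Pecam1 (0.042), under 1% sarcomere (0.011), in endothelial-like clusters (0.032), with doublets kept (0.033) and thinned (0.11), and ran from -0.18 to 0.15 over left-out libraries. Cd34 turned positive at 1 UMI (0.030), under 1% sarcomere (0.014), in endothelial-like clusters (0.00044) and with doublets kept (0.0079), and ran from -0.25 to 0.20 over left-out libraries, and Thbd from -0.013 to 0.42. The Npr3 split had 3564 calls in DESeq2 and 1339 thinned, and S1pr1 (-0.12) and Nos3 (-0.080) reversed in endothelial-like clusters. The Wnt4 split had 1113 in DESeq2, 1678 in endothelial-like clusters and 735 thinned, and Cd34 reversed in endothelial-like clusters (-0.18) and thinned (-0.020), and ran from -0.029 to 0.064 over left-out libraries. The Cdh5 split had 3997 in mesenchymal-like clusters and 1563 thinned, with all 107 member values called. Leaving out a library gave 4780 to 5371, 1748 to 2408 and 5668 to 6235 calls in these splits. The interaction had 0 to 2 calls over left-out libraries and 9 with the library as a block. Over left-out libraries it ran from -0.38 to 0.074 for Klf2, -0.091 to 0.18 for Klf4, -0.093 to 0.12 for Rasip1, -0.20 to 0.088 for Nos3, -0.28 to 0.30 for Thbd, -0.11 to 0.58 for Nts and -0.16 to 0.17 for Dusp2, so each changed sign, and Thbd also with the block (0.011). In Hapln1 mesenchyme without Cdh5 the log2 ratios ranged over left-out libraries from 0.16 to 0.45 for Klf4, 0.47 to 0.77 for S1pr1 and -0.37 to 0.45 for Rasip1, and S1pr1 was 0.94 without Pecam1 as well and 0.18 thinned. Cells with no UMI of any endothelial marker were too few for a value. The replicate block gave 0 calls and changed no call of the 9 genes. Libraries of the same replicate number did not deviate together (r = -0.07 over 13895 genes). A single correlation, with Ho1 apart from the other libraries, cannot tell whether libraries of the same number shared a litter or day. The cause of these shifts was not tested. S1pr1 in mesenchyme without Cdh5 rests on 26 to 53 UMIs a library.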
